A study of Saccharomyces cerevisiae with 11 samples.

Results

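NCS-506 is an Abf1 construct made by random mutagenesis that kept budding yeast alive but slowed its growth. The 2 total RNA libraries of cells carrying it were compared here with the 2 libraries of cells carrying wild-type Abf1, which makes 4 of the 11 libraries of the series. The samples were chosen by their labels alone, and the question was which genes a viable construct did not hold at the wild-type level. All cells descended from clone A9 of the ABF1-aa-V5 strain, labelled BY4741 and built for the anchor-away technique. In such a strain the chromosomal Abf1 carries an FRB tag, and rapamycin couples it to the ribosomal protein Rpl13A, which carries it out of the nucleus. The cells held a pRS315 plasmid, kept by its LEU2 marker in medium without leucine, and received 8 µg/mL rapamycin in log phase. The plasmid encoded full-length wild-type Abf1, NCS-506, or nothing (no Abf1, 3 libraries). LS-15, another viable construct, had 2 libraries. The remaining 2, of the EM shuffle construct, which was inviable in the study, served mainly for the shared estimate of spread. According to the study's methods, replicates came from independent transformants of this single strain. Both NCS-506 libraries, the no Abf1 and LS-15 libraries and wild-type replicate 2 were treated for 1.25 h and share a batch label, whereas wild-type replicate 1 was treated for 1 h and carries the label of an earlier batch. In the wild-type group, batch, treatment time and replicate therefore cannot be told apart.

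Abf1 is a general regulatory factor. It binds a bipartite DNA motif in many yeast promoters, helps to keep the nucleosome-free region open and is essential for growth. Besides its DNA-binding domain it has intrinsically disordered regions (IDRs), and the second of these, IDR2, contains a short stretch called the essential motif (EM). Genes that depend on Abf1 are known to include many housekeeping genes of translation, metabolism and mitochondria.

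NCS-506 kept 214 of the 283 residues of IDR2, from residue 449 to residue 662 of the 731 residues of Abf1. Of these, 13 residues differed from the wild type, so that 93.9% of the shared stretch was identical. The changes, numbered along full-length Abf1 with the wild-type residue first, were I476T, S477P, N491D, H522Y, D539G, L551P, E560G, Y588H, V607A, S630P, I632T, R652G and K659N. Only E560G lay in the essential motif, taken here as residues 560 to 578, the 19 residues of the study's construct that holds this motif alone. The study's text describes the motif as slightly longer. The construct also lacks the first IDR, whereas the wild-type plasmid holds the whole protein. According to the study, its mutant constructs further carry an added nuclear localization signal, and its growth assay names this construct with a Flag tag. The effects of the 13 changes, of the missing end of IDR2, of the missing first IDR and of such additions cannot be told apart here.

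The coding sequence of the essential motif is shown because it places the single change of that motif beside the wild type. The wild-type bases were read from the plus strand of the R64 genome at chrXI:228247-228303, and capitals mark the bases that differ between both sequences.
wild-type ABF1: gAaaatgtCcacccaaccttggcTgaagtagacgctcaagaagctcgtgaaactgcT
NCS-506: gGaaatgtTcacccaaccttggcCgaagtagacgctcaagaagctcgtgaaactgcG
The 4 base differences, counted from 1 at the first base shown, were A2G, C9T, T24C and T57G. The first of them gives E560G, and the other 3 leave the encoded residue as it was.

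The depth was 1422833 counts for wild-type replicate 1 and 1359428 for wild-type replicate 2, and 2195476 and 1539493 for NCS-506 replicates 1 and 2. Values below are normalized counts, in CPM scaled by the trimmed mean of M-values (TMM CPM). Small RNA genes took 29.6% of the counts of wild-type replicate 1 but 15.8% of wild-type replicate 2 and 18.1% and 16.9% of the NCS-506 libraries. The strain label was checked against mating type genes, since BY4741 is a MATa strain. In the 11 libraries the 4 alpha-specific genes STE3, MF(ALPHA)1, MF(ALPHA)2 and SAG1 summed to between 474 and 1327 CPM (without TMM). The 6 a-specific genes summed to between 19 and 56.1, and MFA1, MFA2, BAR1 and AGA2 did not reach the count filter. MET17, deleted in BY4741, had between 131 and 563 counts. The libraries thus went against the strain label in the same way in every group. FPR1, which anchor-away strains commonly lack, had between 1 and 9 counts. ABF1 had 314 and 364 CPM in the wild-type and 248 and 219 in the NCS-506 libraries (log2 difference −0.54, standard error 0.275, adjusted p = 0.305). Its counts come from the chromosome and the plasmid together, and NCS-506 lacks part of the gene, so that this value does not check the labels. The plasmid marker LEU2 had 1172 and 1134 CPM with wild-type Abf1 and 548 and 537 with NCS-506 (log2 difference −1.09, adjusted p = 0.0935).

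Between NCS-506 and wild-type Abf1, 28 features were lower and 3 higher with NCS-506 among 5379 tested, that is, 0.521% and 0.0558% of all features (edgeR quasi-likelihood test, Benjamini-Hochberg adjusted p under 0.05, 0.576% called in all). The lower features held 24 protein-coding genes, among them 7 genes of cytosolic ribosomal proteins and enzymes of nucleotide, cofactor and amino acid synthesis, and 3 small RNA genes. In all 31, the NCS-506 and the wild-type libraries did not overlap, which the choice of features by the test largely set. Over all features, 25.2% were lower and 26.9% higher in both NCS-506 libraries than in either wild-type library. The number of calls rests on few libraries. It was 3 without wild-type replicate 1, which is also the comparison within the later batch, and 141 without wild-type replicate 2. Leaving out NCS-506 replicate 1 gave 2, and leaving out NCS-506 replicate 2 gave 0. The number also followed the libraries that set the shared spread. A fit of only the 4 libraries called 2 features, leaving out any of the no Abf1 libraries gave 2, leaving out LS-15 replicate 1 or 2 gave 49 or 56, and leaving out EM shuffle replicate 1 or 2 gave 390 or 397. DESeq2 called 190. Each of the 31 kept its direction in every count-based fit, but on the deposited log2(TPM + 1) scale, which shifted the median of all features up by 0.57, 10 of the falls (RPS6B, RPL20A, RPS25B, RPS26B, ELO1, SAM2, ITR1, RNR2, KTR1 and FAB1) turned slightly positive without a call. The groups stood apart in that scale itself, since the TPM values deposited for a library made up 8.55% and 8.79% of the complete scale with wild-type Abf1 but 11.6% and 12.1% with NCS-506. RIB4 was called in 18 of 22 alternatives, more often than any other of the 31.

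**Figure D1:**
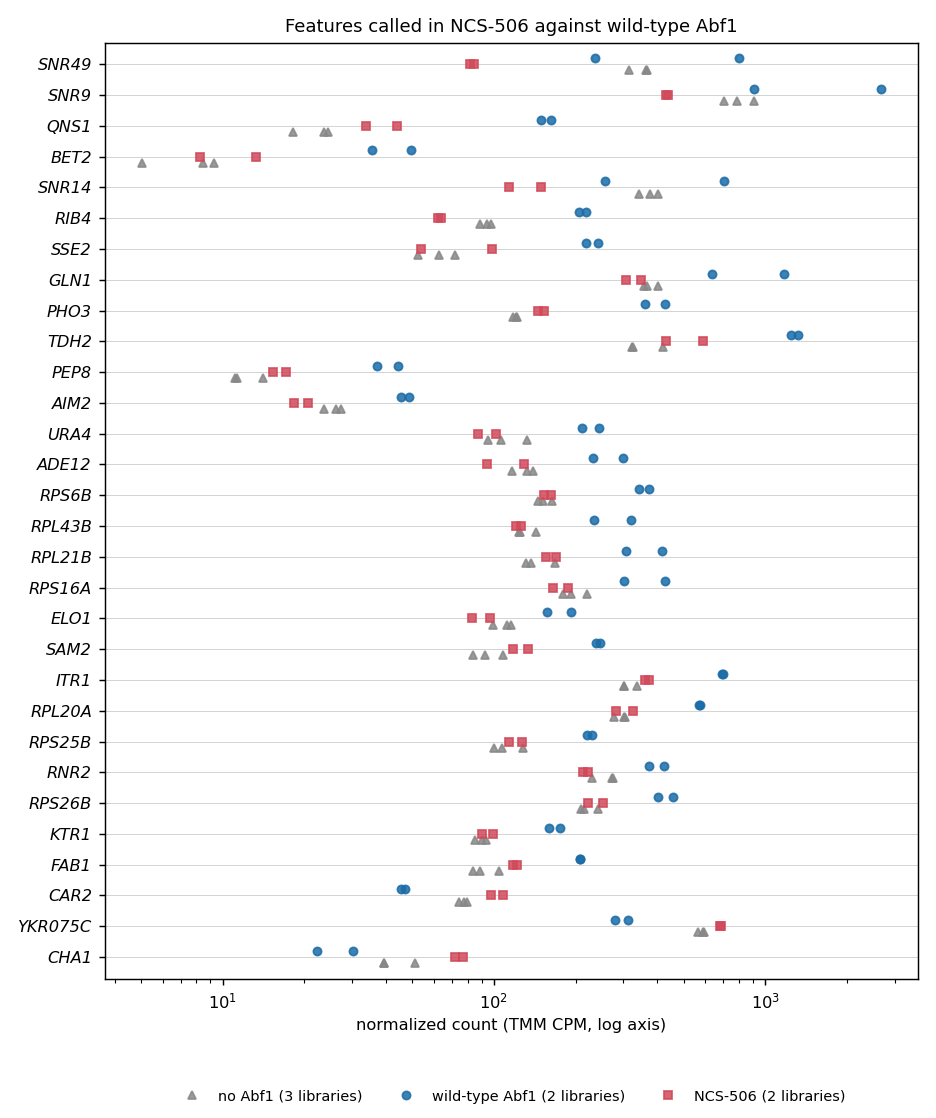
Normalized counts (TMM CPM, logarithmic x axis) of the 30 called features that have a RefSeq name or position, ordered by fold change, with a point for each library of wild-type Abf1 (circles), NCS-506 (squares) and no Abf1 (triangles). In each row both squares lie on the same side of both circles, to the left for 27 features and to the right for CAR2, YKR075C and CHA1. The rows were chosen by the test between these groups, which largely set this position.

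A match to the Abf1 consensus within 400 bases before the gene start was present in 6 of the 27 called protein-coding genes (22.2%), compared with 17.1% of the 5258 protein-coding genes tested, and in the small RNA genes SNR9 and SNR14. The matches are shown because they are where Abf1 could contact the DNA of a gene that changed. They were read from the R64 genome, 5′ to 3′ on the strand of the match, with the match in capitals and its neighbours in lower case. A match is a description and not a measured binding site.
BET2, 127 bases before the gene, chrXVI:892197-892225, plus strand: caagcgaaGTCATTAAGTACGgaaatgtt
SSE2, 201 bases, chrII:576189-576217, minus strand: taccaaaaATCACATCATACGaggagttt
SSE2, 367 bases, chrII:576355-576383, plus strand: cctgaaggATCATGACTAACGtttgccaa
PEP8, 164 bases, chrX:335714-335742, plus strand: tatgttttATCATCATGCACGatcgacgt
RPL43B, 180 bases, chrX:608105-608133, minus strand: aggtatttATCATTATGCACGacaagtgc
ITR1, 385 bases, chrIV:1445844-1445872, plus strand: catagctcATCATGTGAGACGatcctgtc
CHA1, 260 bases, chrIII:17132-17160, minus strand: gagtactaATCACCGCGAACGgaaactaa
SNR9, 129 bases, chrXV:408255-408283, plus strand: gatttattGTCATCACAGACGttgagtct
SNR14, 130 bases, chrV:167708-167736, plus strand: actaatatATCATTTTACACGatatttga
SNR14, 366 bases, chrV:167944-167972, plus strand: cacaacttATCGCATAGGACGttgtttat
The spacer between both conserved ends of the motif differed in every match, and the matches lay on either strand. BET2 and SSE2 were among the largest protein-coding falls, whereas CHA1 was higher with NCS-506. QNS1, the largest protein-coding fall (log2 −2.00), and RIB4 (log2 −1.75) had no match.

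Enzymes of cofactor and nucleotide synthesis made up a first group of falls. RIB4 (chromosome XV, 54595 to 55104 of R64), the lumazine synthase of riboflavin synthesis, had 206 and 218 CPM with wild-type Abf1 and 63.8 and 62.4 with NCS-506. That is 212 ± 8.43 against 63.1 ± 0.949 (SD, n = 2 each), a 3.36-fold fall (log2 −1.75, standard error 0.175, adjusted p = 0.00201 from edgeR). The gap between the groups was many times the spread within them. QNS1 (chromosome VIII, 246193 to 248337), which makes NAD+ with glutamine as nitrogen donor, had 162 and 149.7 CPM in the wild type and 43.8 and 33.6 in NCS-506, a fall of 4-fold (log2 −2.00, standard error 0.311, adjusted p = 0.0267). The no Abf1 libraries held 18.1, 24.4 and 23.7 CPM of QNS1, below both NCS-506 libraries, while RIB4 stood at 94.5, 97.6 and 88.6 there, above both. Neither difference between NCS-506 and no Abf1 passed the test (adjusted p = 0.216 and 0.0909).

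In nucleotide synthesis, URA4, the dihydroorotase of the pyrimidine pathway, had 243 and 212 CPM in the wild type and 87.1 and 102 in NCS-506 (log2 −1.26, adjusted p = 0.0267). ADE12, which commits IMP to AMP synthesis, had 299.8 and 231 CPM in the wild type and 94.2 and 129 in NCS-506 (log2 −1.25, adjusted p = 0.0267). RNR2, the small subunit of ribonucleotide reductase, fell by 0.87 on the log2 scale (adjusted p = 0.0415). All 3 genes, like every called fall, were lower in both NCS-506 libraries than in either wild-type library.

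Genes of amino acid and nitrogen metabolism changed in both directions. GLN1, glutamine synthetase, had 1169 and 636 CPM in the wild type and 349 and 307 in NCS-506 (log2 −1.46, standard error 0.247, adjusted p = 0.0358). The wild-type libraries were themselves 1.84-fold apart, and the log2 fold change was −0.95 without replicate 1. SAM2, an S-adenosylmethionine synthetase, fell by 0.94 (adjusted p = 0.0445). The rises were CHA1, the serine and threonine deaminase, CAR2, the ornithine aminotransferase of arginine use, and YKR075C, which has no gene name in the files. CHA1 had 30.1 and 22.3 CPM in the wild type and 72.1 and 77.1 in NCS-506, a 2.86-fold rise (log2 1.52, standard error 0.259, adjusted p = 0.0358). CAR2 had 46.9 and 45.3 CPM against 108 and 97.2, a 2.23-fold rise (adjusted p = 0.0358). Both are enzymes that break amino acids down. YKR075C had 279 and 311 CPM in the wild type and 689 and 684 in NCS-506 (2.33-fold, adjusted p = 0.0267).

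A further group comprised single genes of protein folding, sugar and phosphate use, lipids and membrane traffic. SSE2, a nucleotide exchange factor of Hsp70 chaperones, had 241 and 219 CPM in the wild type and 98.4 and 53.6 in NCS-506 (log2 −1.58, adjusted p = 0.0267). PHO3, the constitutive acid phosphatase, had 359 and 429 CPM in the wild type and 145 and 153 in NCS-506 (log2 −1.40, standard error 0.166, adjusted p = 0.00579). TDH2, a glyceraldehyde-3-phosphate dehydrogenase, had 1241 and 1327 CPM against 431 and 588 (log2 −1.33, adjusted p = 0.0465). These genes have close relatives in the genome (SSE1, PHO5 and the other TDH genes, and SAM1 for SAM2), so that their counts depend on how shared reads were assigned. AIM2 had 48.6 and 45.3 CPM in the wild type and 18.3 and 20.6 in NCS-506 (log2 −1.27, adjusted p = 0.0358). ELO1, a fatty acid elongase, ITR1, the myo-inositol transporter, FAB1, the kinase that makes phosphatidylinositol 3,5-bisphosphate at the vacuole, and KTR1, a Golgi mannosyltransferase, fell by between 0.78 and 0.96 on the log2 scale. BET2, a subunit of the prenyltransferase that modifies Rab GTPases, fell 3.81-fold, and PEP8, a retromer subunit that returns sorting receptors from endosomes, fell 2.48-fold. Both had a mean below 50 counts over the 4 libraries.

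The called small RNA genes were SNR49 and SNR9, which guide pseudouridine formation in ribosomal RNA, and SNR14, the U4 small nuclear RNA of the spliceosome. SNR49 had 803 and 236 CPM in the wild type and 84.2 and 81.9 in NCS-506 (log2 −2.64, adjusted p = 0.0267). SNR9 had 2684 and 909 CPM against 431 and 439, and SNR14 had 703 and 256 CPM against 114 and 149.6 (adjusted p = 0.0483 for both). In these genes wild-type replicate 1 stood 3.4-fold (SNR49), 2.95-fold (SNR9) and 2.75-fold (SNR14) above replicate 2. Over the 68 small nuclear and nucleolar RNA genes tested the median log2 fold change was −0.93 (0.09 on the log2(TPM + 1) scale), but −0.03 without wild-type replicate 1 and −1.48 without replicate 2. Against no Abf1, a comparison without wild-type libraries, the median was −0.82. In it 6 of the 68 were called lower with NCS-506, a call that 0.632% of all features received. SNR49 (log2 −2.07, adjusted p = 0.0306) and SNR14 (−1.51, adjusted p = 0.0392) were among them. Against LS-15 and EM shuffle the medians were −0.65 and −0.16, and 0 of the 68 were called in either comparison. The share of small RNA counts was 23.3% to 25.4% in the no Abf1 libraries, and its part in these differences was not tested. YKL111C, an identifier without a match in RefSeq, had 20 and 12 counts in the wild-type libraries and 0 in both NCS-506 libraries, which makes it at least 8.32-fold lower against a floor of 3 counts per library. It passed the filter only through the wild type. The other groups were near 0 as well, with 1, 0 and 0 CPM in no Abf1, 0 in both LS-15 libraries and 0.443 and 0.525 in EM shuffle. Its identifier is next to that of ABF1 (YKL112W), a gene of which NCS-506 lacks part. Whether its counts came from the wild-type plasmid was not tested.

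The largest group of called genes with a common function belonged to the cytosolic ribosome. All 138 ribosomal protein genes were tested, and 7 fell (5.07%, compared with 0.521% of all features). They were RPS6B, RPS16A, RPS25B and RPS26B of the small subunit and RPL20A, RPL21B and RPL43B of the large subunit. RPS6B had 343 and 373 CPM in the wild type and 153 and 162 in NCS-506 (log2 −1.19, standard error 0.207, adjusted p = 0.0358). RPL43B had 321 and 233 CPM against 121 and 126 (log2 −1.16), and RPL21B had 415 and 307 against 155 and 170 (log2 −1.15). The other 4 lay between −0.85 and −1.05. Each of the 7 has a near-identical paralog, so that the division of reads between both copies is uncertain.

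Most ribosomal protein genes did not pass the test one by one, yet 134 of 138 were lower in both NCS-506 libraries than in either wild-type library, and none was higher in both. Over all 5379 features, 25.2% were lower and 26.9% higher in this way. The median log2 fold change was −0.66 over the 138 genes (quartiles −0.81 and −0.54), against 0.01 over all features, and lay between −0.55 and −0.76 when each of the 4 libraries was left out. Against wild-type replicate 2 alone, which shares batch and time with NCS-506, 136 of 138 genes were lower in both NCS-506 libraries and 1 was higher (39.2% and 42.1% of all features). On the log2(TPM + 1) scale the median of the 138 genes was 0.35, which turns the direction, and relative to the shift of 0.57 of all features it was −0.22. The largest differences that did not pass were RPS21A of the small subunit, with 215 and 120 CPM against 54.6 and 48.9 (adjusted p = 0.101), and RPL41B of the large subunit, with 781 and 283 against 208 and 213 (adjusted p = 0.088). In no Abf1, LS-15 and EM shuffle, compared with the same wild-type libraries, the median of the 138 genes was −0.74, −0.78 and −0.56. Between NCS-506 and no Abf1 directly it was 0.05, and none of the 138 genes was called in either direction. Of all features, 2.29% were called higher and 0.632% lower in that comparison.

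**Figure D2:**
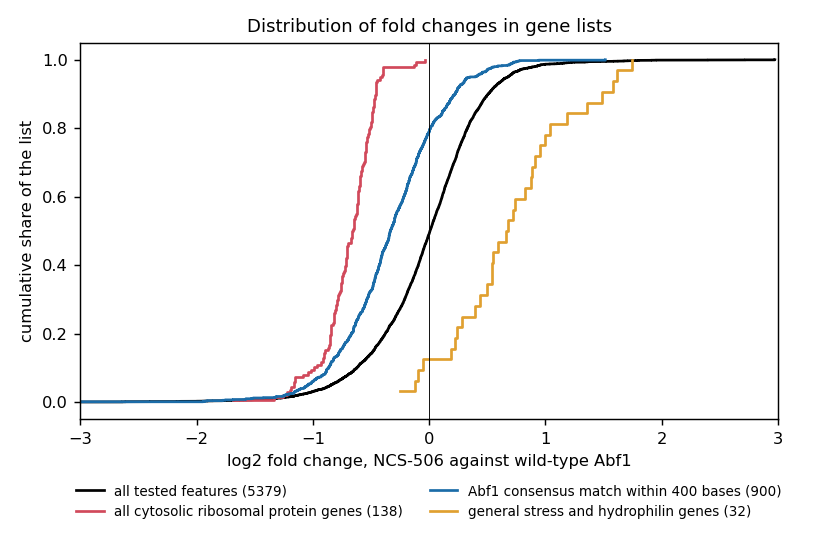
Cumulative share of genes (y axis) against the log2 fold change of NCS-506 over wild-type Abf1 (x axis) for all 5379 features tested, the 138 cytosolic ribosomal protein genes, the 900 protein-coding genes with an Abf1 consensus match and the 32 general stress genes. The ribosomal protein curve lies left of the others, with its median at −0.66 on this TMM scale (0.35 on the TPM scale), and the stress curve lies right, with its median at 0.67.

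The tRNA synthetase and translation factor genes lay below the wild type without any call. Of the 22 aminoacyl-tRNA synthetase genes, which charge tRNAs with amino acids, 20 were lower in both NCS-506 libraries than in either wild-type library, and their median log2 fold change was −0.51 (0.43 on the log2(TPM + 1) scale). HTS1, for histidine, had 284 and 338 CPM against 153 and 164 (adjusted p = 0.0908). Of the 40 translation factor genes, 27 were lower in both libraries and 1 was higher (median −0.36, and 0.59 on the TPM scale, where it lay 0.02 above that of all features). The 129 ribosome biogenesis genes had a median of −0.29 (0.46 on the TPM scale), with 38 lower in both (29.5%, near the 25.2% of all features) and 1 higher. The value rested on the wild-type library used: the median was −0.53 without wild-type replicate 1 and −0.02 without replicate 2. Leaving out NCS-506 replicate 1 moved it to −0.12, and leaving out replicate 2 to −0.52. Genes of the mitochondrial ribosome, a separate machine, had a median of 0.10, with 16 of 79 lower and 15 higher.

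Biosynthetic pathways held further genes below the wild type. The 9 pyrimidine synthesis genes had a median of −0.78 (0.17 on the TPM scale), with URA4 called and 7 of 9 lower in both libraries. URA1, the dihydroorotate dehydrogenase, had 412 and 527 CPM in the wild type and 138 and 194 in NCS-506 (adjusted p = 0.0916). Of the 27 purine and one-carbon genes, 17 were lower and 1 higher (median −0.59, and 0.39 on the TPM scale, ADE12 called). ADE17, which acts late in IMP synthesis, had 574 and 158 CPM against 118 and 83 (adjusted p = 0.0737), and its value rested on wild-type replicate 1. Of the 16 genes of fatty acid synthesis and elongation, 12 were lower (median −0.40, and 0.43 on the TPM scale, ELO1 called). OLE1, the fatty acid desaturase, had 1006 and 699.8 CPM against 340.5 and 464 (adjusted p = 0.0672). Among the 25 ergosterol genes 13 were lower and none was higher (median −0.31, and 0.47 on the TPM scale), and ERG10, the first enzyme of the pathway, had 257 and 266 CPM against 148 in both NCS-506 libraries (adjusted p = 0.105). Among the 87 amino acid biosynthesis genes, GLN1 and SAM2 fell, and the median was −0.16, with 41 lower in both libraries (47.1%) and 13 higher (14.9%), compared with 25.2% and 26.9% of all features. Some of these medians moved with single libraries. That of the purine and one-carbon genes was −0.36 without wild-type replicate 1, −0.37 without NCS-506 replicate 1 and −0.86 without NCS-506 replicate 2. The pyrimidine median was −0.51 without NCS-506 replicate 1, and the ergosterol median −0.20 without wild-type replicate 2.

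Stress and storage genes stood on the other side. Of the 32 general stress and hydrophilin genes tested, 23 were higher in both NCS-506 libraries than in either wild-type library (71.9%) and 1 was lower. Over all features 26.9% were higher and 25.2% lower in this way, which also holds beside the counts of the next lists. Their median log2 fold change was 0.67, and no gene passed the test. The median was 0.44 without wild-type replicate 2 and 0.43 without NCS-506 replicate 1. DDR2 had 126 and 71.7 CPM in the wild type and 411 and 249 in NCS-506 (log2 1.75, adjusted p = 0.142), and HSP12, a small membrane-associated stress protein, had 415 and 354 against 1582 and 776 (log2 1.62, adjusted p = 0.292). NCS-506 replicate 1 lay above replicate 2 in both genes. By library the median over the 32 genes was 0.87 and 0.48 above the wild-type mean in NCS-506 replicates 1 and 2, and 1.40, 1.53 and 1.61 in the no Abf1 libraries. Of the 20 genes of trehalose and glycogen metabolism, which store sugar, 14 were higher in both and 1 lower (median 0.53, but 0.30 without wild-type replicate 2 and 0.38 without NCS-506 replicate 1). TSL1, a subunit of the trehalose synthase complex, had 1727 and 1067 CPM against 2748 and 2552 (adjusted p = 0.196). Among 13 hexose transporters and sensors, 9 were higher and 1 lower (median 0.39). HXT1, the low-affinity glucose transporter, had 565 and 388 CPM in the wild type and 900.2 and 1359 in NCS-506 (log2 1.25, adjusted p = 0.0715).

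Iron uptake genes had a median of 0.57 over 25 genes tested, and 0.87 without wild-type replicate 2. Of them 14 were higher in both libraries (56.0%, against 26.9% of all features) and 1 was lower. SIT1, a siderophore transporter, had 26 and 68.9 CPM in the wild type and 175 and 145 in NCS-506 (log2 1.73, adjusted p = 0.0831), compared with a mean of 57.7 in no Abf1 and 183 in LS-15. FIT2, a cell wall mannoprotein that retains siderophore iron, had 5.86 and 20.2 CPM against 54.6 and 38.9 (log2 1.80, adjusted p = 0.138). FRE1, a metalloreductase of the plasma membrane, had 87.9 and 83.6 CPM against 438 and 118 (adjusted p = 0.103), with both NCS-506 replicates far apart. The wild-type libraries gave different pictures of the 41 nuclear genes of oxidative phosphorylation, which build the respiratory chain. Their median was 0.05 with both, 0.35 without wild-type replicate 1 and −0.19 without replicate 2. Against replicate 2 alone 30 of the 41 were higher in both NCS-506 libraries and 2 lower (42.1% and 39.2% of all features). The 35 proteasome genes had a median of 0.18, but 0.00 without wild-type replicate 2. The DNA replication and RSC remodeler genes had medians of −0.07 and −0.09, which stayed between −0.17 and 0.00 with each of the 4 libraries left out.

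**Figure D3:**
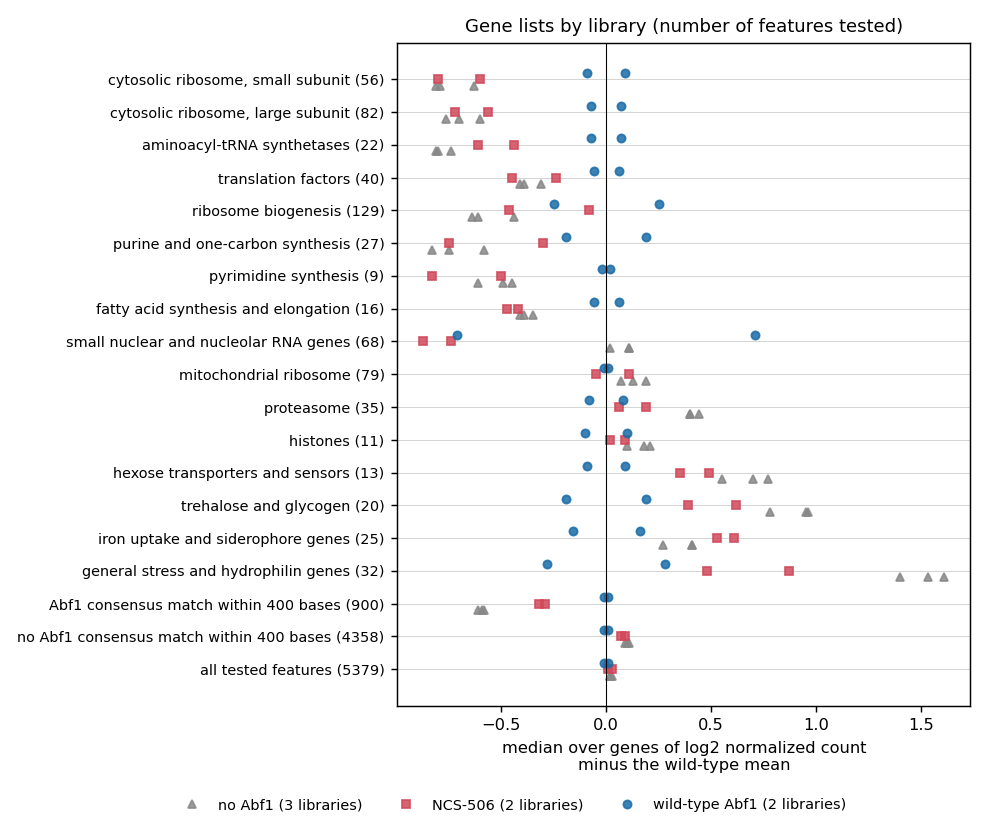
Median over the genes of each list of the log2 normalized count minus the wild-type mean (x axis), with a point for each library of wild-type Abf1 (circles), NCS-506 (squares) and no Abf1 (triangles), and the number of features tested in parentheses. On this TMM scale both NCS-506 libraries lie left of both wild-type libraries for ribosomal proteins and tRNA synthetases and right of them for the stress list. The wild-type libraries lie farthest apart for the small RNA genes.

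Genes with an Abf1 consensus match lay lower than genes without a match. The median log2 fold change of NCS-506 over wild-type Abf1 was −0.33 over 900 protein-coding genes with a match within 400 bases and 0.07 over 4358 without. Of the former, 492 (54.7%) were lower in both NCS-506 libraries and 81 (9.0%) higher, and of the latter 825 (18.9%) and 1354 (31.1%). Over all features the shares were 25.2% and 26.9%. By the test, 5 genes with a match fell (0.556%) and 19 without (0.436%), both shares near the 0.521% of all features. With a window of 250 bases the median was −0.39. The median of the 900 genes with a match within 400 bases turned to 0.41 on the log2(TPM + 1) scale. That is −0.16 relative to all features on that scale. On TPM rescaled to a common sum it turned to 0.13 (−0.18 relative to all features). By library, the 900 genes lay 0.32 and 0.29 below the wild-type mean in NCS-506, and 0.58, 0.61 and 0.59 below it in no Abf1 (medians on the log2 scale).

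The direct comparison with no Abf1 contains no wild-type library and asks which genes NCS-506 held above the level without Abf1. It gave 157 calls among 5379 features (2.92%), of which 123 had more counts with NCS-506 (2.29%) and 34 had fewer (0.632%). A consensus match was present in 101 of the 123, that is, in 82.1%, and these were 11.2% of the 900 tested genes with a match. No call was left when any library of NCS-506 or of no Abf1 was left out (0 for replicates 1 and 2 of NCS-506 and for replicates 1, 2 and 3 of no Abf1), while the median of the 900 genes stayed between 0.25 and 0.30 in these fits (0.26 in the full fit, 0.01 over all features). None of the 101 was among the genes called lower than wild type, a call that only 5 of the 900 genes with a match received (0.556%, near the 0.521% of all features). Over the same 900 genes NCS-506 had a median log2 difference of 0.15 from LS-15 and −0.06 from EM shuffle. In either of these comparisons 0 of them were called, so that the levels above no Abf1 were not shown to be particular to NCS-506. The LS-15 libraries were themselves apart. By library, the median of the 900 genes relative to the wild-type mean was −0.60 in LS-15 replicate 1 and −0.37 in replicate 2. In no Abf1 it was −0.58, −0.61 and −0.59. The 0 calls against LS-15 thus do not show that both constructs held these genes alike.

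Among the genes named from the lists, 17 were called higher with NCS-506 than with no Abf1, and 14 of them carried a match. In 16 of the 17, both NCS-506 libraries were below both wild-type libraries, from 1.21-fold for ARP9 to 2.68-fold for CHO1 between the means. None of these 16 passed the test against the wild type. The named list members had been picked for the largest differences from wild-type Abf1, so that this position was largely set by the choice. It does not describe the other genes called higher than no Abf1. PRO3, which completes proline synthesis, had 63.3 and 77.1 CPM in NCS-506 and 7.03, 5.63 and 6.18 in no Abf1 (log2 3.46, standard error 0.659, adjusted p = 0.0306), with 149 and 159 in the wild type. It had no match within 400 bases. MGE1, the exchange factor of mitochondrial Hsp70, had 51.7 and 42.4 CPM against 5.02, 6.57 and 7.21 (log2 2.90, adjusted p = 0.0306), and 93.8 and 100.3 in the wild type. In both genes NCS-506 lay between both controls, without overlap with either. GIS2, a zinc-knuckle protein linked to translation, had 97.5 and 101 CPM in NCS-506, 18.1, 12.2 and 12.4 in no Abf1 and 160.0 and 172 in the wild type. CHO1, the phosphatidylserine synthase, had 77.1 and 64.2 CPM, 12.1, 16 and 14.4 in no Abf1 and 200.2 and 181 in the wild type (log2 over no Abf1 2.32, adjusted p = 0.032). HMG2, an HMG-CoA reductase of sterol synthesis, had 90.4 and 94.2 CPM, 29.1, 20.6 and 21.6 in no Abf1 and 147 and 144 in the wild type. TIF1, the helicase eIF4A, had 156 and 133 CPM against 23.1, 22.5 and 21.6 (log2 2.69, adjusted p = 0.035), but shares its coding sequence closely with TIF2, so that its counts are uncertain.

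The tRNA synthetase genes DPS1, TYS1 and MES1, the eIF3-associated gene HCR1, the RNA polymerase III subunit gene RPO31, the mitochondrial import receptor gene TOM70 and the proteasome gene RPN8 had log2 differences between 1.08 and 1.37 over no Abf1. The tRNA synthetases had 270.5 and 300.3 CPM (DPS1), 114 and 159 (TYS1) and 200 and 260.3 (MES1) in NCS-506. No Abf1 held 102 to 115, 51.5 to 63.3 and 91.4 to 122 of them. URA5, of pyrimidine synthesis, lacked a match and had 126 and 131 CPM against 61.3, 60.1 and 50.5. PRM5, a membrane protein of the pheromone and cell wall response, was also higher than the wild type by value, with 107 and 122 CPM against 63.3, 59.1 and 72.1 in no Abf1 and 56.1 and 62.7 in the wild type.

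The matches of the 4 genes with a match and the largest difference to no Abf1 are shown for comparison with those of the genes that fell.
MGE1, 212 bases before the gene, chrXV:774341-774369, minus strand: attaaaatATCACTGAATACGtatgccaa
GIS2, 168 bases, chrXIV:167950-167978, minus strand: gctgtggtGTCATGATAGACGaaatgctg
TIF1, 187 bases, chrXI:554780-554808, minus strand: atttttcaGTCACTATAAACGttgtgagg
CHO1, 191 bases, chrV:208657-208685, minus strand: tggtcaaaATCACTTTGAACGttcacacg
The closest match lay at a median of 161 bases before the gene in the 101 genes, 180 in the 5 genes with a match that fell against the wild type, and 168 in all 900.

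**Figure D4:**
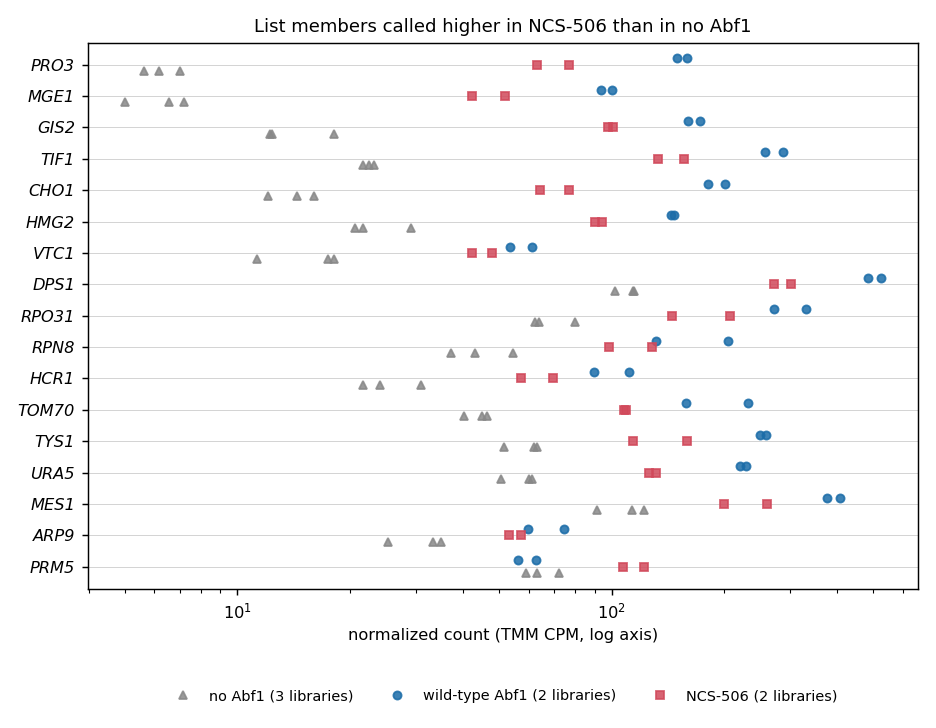
Normalized counts (TMM CPM, logarithmic x axis) of the 17 list members called higher in NCS-506 than in no Abf1, with a point for each library of wild-type Abf1 (circles), NCS-506 (squares) and no Abf1 (triangles). All squares lie right of all triangles in each row, and in 16 of the 17 rows they also lie left of the wild-type circles, PRM5 being the exception. The list members had been picked for a large difference from wild-type Abf1.

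The genes that fell against the wild type were also compared with no Abf1. Of the 28, SNR49 and SNR14 differed from no Abf1, both lower with NCS-506, where 2.92% of all features were called. For the 24 protein-coding genes the log2 difference from no Abf1 lay between −0.57 and 0.82. As examples, RPS6B had 153 and 162 CPM in NCS-506 and 145, 151 and 163 in no Abf1, and KTR1 had 90 and 99.5 against 93.5, 85.4 and 90.7. The groups overlapped in both genes. A difference that does not pass the test does not show that NCS-506 and no Abf1 act alike on these genes.

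Between NCS-506 and LS-15, the other viable construct, 0 of 5379 features were called by edgeR, with 384 at an unadjusted p under 0.05. DESeq2 called 3, limma on log2(TPM + 1) 0, and leaving out LS-15 replicate 2 gave 44. For the falls named above the log2 difference of NCS-506 from LS-15 was −0.42 for RIB4, −0.39 for QNS1 and 0.59 for PHO3. The stress list had a median of 1.24 in LS-15 over the wild type, beside 0.67 in NCS-506, both against the same wild-type libraries. In EM shuffle this median was −0.43, and by library it lay at 0.09 and −1.27 relative to the wild-type mean.

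Among features with a mean of at least 50 counts over the 4 libraries that did not pass, the 5 largest differences below the wild type without overlap were ZRT1, ZPS1, SNR44, SNR36 and ADE17. ZRT1, the high-affinity zinc transporter, had 474 and 690.0 CPM in the wild type and 117 and 18.3 in NCS-506 (log2 −3.06, adjusted p = 0.0715), and ZPS1, which responds to zinc shortage, had 146 and 42.5 against 24.2 and 8.83 (log2 −2.44, adjusted p = 0.0715). In both, the NCS-506 libraries were themselves far apart. By the same rule the 5 largest above the wild type were TKL2, FIT2, NCA3, RCK1 and DDR2. TKL2, a transketolase, had 39.4 and 19.5 CPM in the wild type, 150.0 and 72.4 in NCS-506 and a mean of 445 in no Abf1 (log2 over the wild type 1.95, adjusted p = 0.168). Features below this minimum reached differences of the same size. MF(ALPHA)2, a gene of alpha pheromone, had 46.1 and 49.4 CPM against 3.33 and 9.42 (log2 −2.98, adjusted p = 0.0725), and FRE2, a ferric reductase, had 1.67 and 3.48 CPM against 9.59 and 11.2 (log2 1.93, adjusted p = 0.0935).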

How the data were processed

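Total RNA of the yeast strains was sequenced as directional libraries. The authors used STAR for alignment to sacCer3 (R64) and RSEM for quantification, both within Snakemake. The versions are not given in the sources used here. The deposited counts are whole numbers per feature without normalization, and the deposited TPM values of the listed features sum to 11.6% and 12.1% of the full TPM scale for NCS-506, 13.2% and 14.1% for EM shuffle and 8.18% to 9.77% for the other groups. No source states if strand was used in counting, which leaves values of overlapping or antisense genes uncertain. Of 6834 features, 6011 matched RefSeq R64 by identifier.

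Features with at least 10 counts in at least 2 of the 4 libraries (5379) entered the quasi-likelihood F-test of edgeR 4.0.16, run in R 4.3.3 (TMM, a coefficient per group over all 11 libraries, Benjamini-Hochberg adjustment over all features, common biological coefficient of variation 0.17). The groups share the wild-type libraries as control. Replicates differed by more than sampling noise (chi-square per degree of freedom 27.7 for wild-type Abf1 and 8.03 for NCS-506). On simulated counts of NCS-506 against wild-type Abf1, 200 of 5379 features were changed. They were drawn from features with a mean of at least 50 counts over the 4 libraries, so that features with fewer counts were not covered. The simulated libraries held no shift of batch or treatment time. Of the changed features, 54.5% were found at 2-fold and 96.9% at 3-fold, with false shares among calls of 5.87% and 4.63%. As alternatives, limma 3.58.1 was run on log2 TPM and DESeq2 1.42.0 on counts, filters were changed and each library was left out.

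Promoters were the 400 bases before the annotated start. The members and gene lists were chosen with earlier results of these data known. Named were all called features, the values of the 15 largest falls and 10 largest rises with a mean of at least 50 counts, up to 4 list members with the largest change, and the 5 largest uncalled differences each way without overlap and with the same minimum. Group means are given ± SD.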

Additional observations from a re-analysis of the deposited data

How the results depend on the processing

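Against wild-type Abf1 (31 called), the count moved to 108 with at least 1 count in any library, 2 with only the 4 libraries, 190 with DESeq2, 2662 and 2611 with limma on log2(TPM + 1) and log2(TPM + 0.1), of which 2654 and 2602 were higher, and 2 on TPM rescaled to a common sum, a setting chosen after seeing the data. It ranged from 0 to 397 with each library left out. The log2 TPM + 1 scale shifted the median of all features by 0.57 and the rescaled one by 0.31. Without small RNA genes 34 features were called, 28 of them shared with the 31. Of the 31, 24 were kept with DESeq2, RIB4 and QNS1 with only the 4 libraries, and RIB4, PHO3 and SNR49 without wild-type replicate 1. Against no Abf1 (157 called), it moved to 307 with at least 1 count, 1011 with only both groups, 253 with DESeq2, 4080 and 4105 with limma on log2(TPM + 1) and log2(TPM + 0.1) and 84 on rescaled TPM, and ranged from 0 to 400 with each library left out. Against LS-15 (0 called), it moved to 3 with only both groups, 3 with DESeq2 and 7 without wild-type libraries in the fit, and ranged from 0 to 44 with each library left out. The cause of these moves was not tested.

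On log2(TPM + 1) and log2(TPM + 0.1), log2 fold changes turned positive, without a call, for RPS6B (0.02 and 0.02), ELO1 (0.02 and 0.05), SAM2 (0.06 and 0.08), ITR1 (0.08 and 0.09), RPL20A (0.12 and 0.13), RPS25B (0.10 and 0.11), RNR2 (0.16 and 0.18), RPS26B (0.16 and 0.16), KTR1 (0.12 and 0.17) and FAB1 (0.08 and 0.19). The median of genes with a consensus match turned to 0.41 and 0.65, and to 0.13 on rescaled TPM.

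No paired analysis was possible for the comparison with wild-type Abf1 because its libraries carry no replicate number. With the replicate number as a block, 34 features were called against no Abf1 and 0 against LS-15. The numbers are not known to pair the samples: same-numbered NCS-506 and no Abf1 libraries had correlations of −0.0967 and −0.053 in their deviations from the group means, NCS-506 and LS-15 libraries of 0.192 and NCS-506 and EM shuffle libraries of 0.383. With 2 libraries a group, 54.5% of simulated 2-fold changes were found among features with a mean of at least 50 counts. Changes of this size can therefore be missed.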
